A study of Sus scrofa with 6 samples.

Results

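The microRNAs (miRNAs) ssc-miR-122, ssc-miR-192 and ssc-miR-148a were examined on liver arrays of newborn male piglets. These 3 miRNAs were taken by name, as miRNAs known to be abundant in hepatocytes, and each matched 1 of the 236 rows of the array table that carry a pig miRNA name. The groups were Large White (LW), a Western breed, and Erhualian (EHL), a Chinese indigenous breed, both purebred. There were 3 arrays per breed, each hybridized with liver RNA pooled from 2 littermates of a separate litter, which makes 6 piglets per breed. The piglets were male, newborn and received no treatment named in the labels. They came from 2 neighbouring farms, and which breed was raised on which farm was not found in the text, so a part of the farm in any breed difference was not tested.

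A miRNA is a short RNA that guides the Argonaute protein to messenger RNAs, chiefly through the bases near its 5′ end that are called the seed, and lowers their translation or stability. miR-122 is the classical liver miRNA, is made almost entirely by hepatocytes and supports cholesterol and fatty acid metabolism. miR-192 is abundant in liver, gut and kidney and responds to p53, and miR-148a takes part in hepatocyte maturation and in the control of the LDL receptor and of DNA methyltransferase. miR-215 shares its seed with miR-192, and miR-148b and miR-152 share theirs with miR-148a. In the gene table of the pig assembly Sscrofa11.1, MIR192 had 1 miRNA gene within 10000 bp, MIR194A, while MIR122 and MIR148A had 0.

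The authors' signals were background-subtracted fluorescence intensities of a single dye on a linear scale, converted here to log2. Named rows with a value numbered between 101 and 134 per array, the lowest value lay between 10 and 16, and 96 rows had a value on all 6 arrays. For the latter, the median signal lay between 187 and 218 on every array. The miRNAs miR-122, miR-192 and miR-148a were among the 96, far above the dimmest values. EHL array 1 had the lowest weight, 0.455, when the arrays were weighted by how closely they followed their breed, and the signals, shares and ratios of these miRNAs whose direction rests on it are given with and without it.

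miR-122 gave the brightest signal of all named rows on all 6 arrays. Its signal was 28071, 18958 and 23800 on LW arrays 1, 2 and 3, and 20649, 20007 and 18287 on EHL arrays 1, 2 and 3. The breeds overlapped, since LW array 2 lay below EHL arrays 1 and 2. The mean was 23610 ± 4559 in LW against 19648 ± 1221 in EHL (SD, n = 3 per breed). On the log2 scale the values ran from 14.16 to 14.78, so that the highest array was 1.54 times the lowest.

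miR-192 ranked 4 on 5 arrays and 3 on EHL array 1. Its signal was 4106, 4679 and 3985 on LW arrays 1, 2 and 3, and 5592, 3640 and 4832 on EHL arrays 1, 2 and 3. The highest and the lowest of the 6 values both belonged to EHL, so the LW range lay inside the EHL range. The mean was 4257 ± 371 in LW against 4688 ± 984 in EHL (SD, n = 3 per breed), and 4236 in EHL without array 1, just below LW. The highest array was again 1.54 times the lowest.

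miR-148a was the most variable of these miRNAs, with a rank between 7 and 25. Its signal was 824, 1326 and 1037 on LW arrays 1, 2 and 3, and 2256, 669 and 1018 on EHL arrays 1, 2 and 3. EHL array 1 stood above the other 5 arrays and EHL array 2 below them, with the LW arrays in between. The mean was 1062 ± 252 in LW against 1314 ± 834 in EHL (SD, n = 3 per breed), but without EHL array 1 it was 844 in EHL, below LW. The highest array was 3.37 times the lowest, and 1.98 times without EHL array 1.

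**Figure D1:**
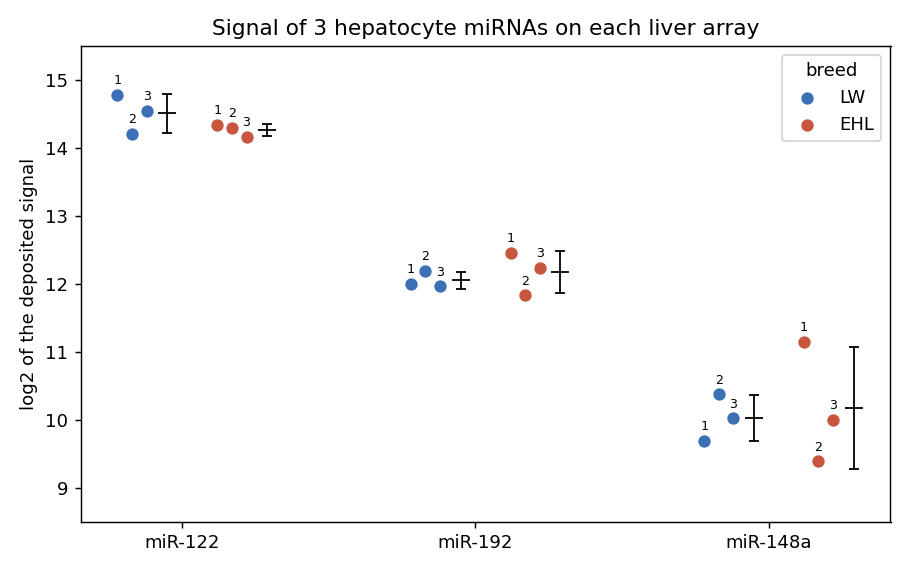
The log2 of the signal (vertical axis) is plotted for miR-122, miR-192 and miR-148a, with 1 point per array labelled by its replicate number, LW in blue and EHL in red, and the mean with its SD as a black bar beside each group. The breeds overlap for each miRNA, and EHL array 1 stands highest for miR-148a, at 11.14.

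The spread over the 6 arrays can be set against that of the other rows. Its SD on the log2 scale was 0.23 for miR-122 and 0.22 for miR-192, and 15 and 11 of the 96 rows had a smaller SD. The median SD of these rows was 0.37. For miR-148a the SD was 0.61, with a smaller SD in 76 rows, and it fell to 0.37 for miR-148a when EHL array 1 was left out. miR-122 and miR-192 thus lay among the steadier rows and miR-148a among the more variable ones.

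The order of signals is a description of the probes as well as of the miRNAs, because hybridization varies from probe to probe, and a rank does not give the abundance. By mean log2 signal, miR-122 ranked 1, miR-192 ranked 4 and miR-148a ranked 15 among the 96 rows. The row next to miR-122 was miR-26a, a widely expressed miRNA, which was dimmer on all 6 arrays by 0.65 ± 0.32 on the log2 scale (SD, n = 6 arrays). Next above miR-192 stood miR-92a, of the miR-17 to miR-92 cluster, which was brighter on 5 arrays by a mean of 0.64 ± 0.47. Next below it stood miR-126, an endothelial miRNA, which was dimmer on all 6 arrays by 0.38 ± 0.27. The neighbours of miR-148a could not be ordered against it. miR-320 differed from it by 0.20 ± 0.82 and miR-92b-3p by -0.0233 ± 0.82, and each was brighter on 3 of 6 arrays.

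**Figure D2:**
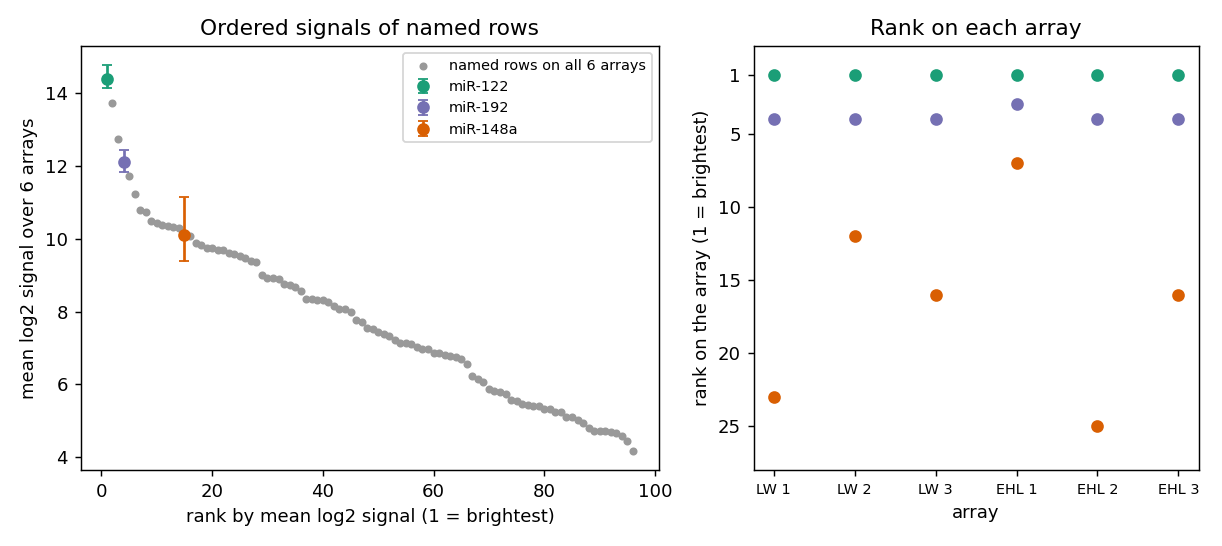
Left, the mean log2 signal of the 96 named rows with a value on all 6 arrays is plotted against its rank, with the lowest to highest array as bars for miR-122, miR-192 and miR-148a. Right, the rank on each array is plotted in the same colours, with 1 for the brightest row. miR-122 stays at rank 1 and miR-192 at 3 or 4, while miR-148a moves between 7 and 25.

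As a share of the summed signal of all named rows on an array, miR-122 made up between 21.2% and 29.9%. The mean share was 26.0% ± 4.21 in LW against 22.7% ± 1.35 in EHL (SD, n = 3 per breed). miR-192 made up 4.71% ± 0.528 in LW and 5.40% ± 0.998 in EHL, and miR-148a 1.18% ± 0.315 in LW and 1.5% ± 0.915 in EHL. These are shares of fluorescence and not of molecules. The ranges of the breeds overlapped for each share. Without EHL array 1 the EHL mean share was 0.985% for miR-148a, below LW, and 4.95% for miR-192, still above LW.

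The comparison of the breeds asked which liver miRNAs differ between EHL and LW at birth. EHL was compared with LW by limma over the 109 named rows listed on 2 or more LW and 2 or more EHL arrays, and a row was called at an adjusted p under 0.15, the FDR that the methods used for miRNA arrays. No call was made for miR-122, miR-192 or miR-148a, and 0 of the 3 had an unadjusted p under 0.05 by limma. Of all rows tested, 1 was called, or 0.917%, and 13, or 11.9%, had an unadjusted p under 0.05. The SAM statistic, recomputed as a second tool, called 8 rows, or 7.34%, and none of these 3 miRNAs, with q-values between 58.1% and 72.2%. In liver RNA, fewer hepatocytes and less of a miRNA per hepatocyte cannot be told apart.

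For miR-122 EHL lay below LW by a log2 ratio of -0.25 (standard error 0.26), with a 95% confidence interval from -0.83 to 0.33 (limma, adjusted p = 0.761). The ratio was thus 0.842 as a fold, with an interval from 0.564 to 1.26. The mean log2 signal was 14.51 ± 0.28 in LW against 14.26 ± 0.091 in EHL (SD, n = 3 per breed). An exact two-sided permutation test of the 6 arrays gave p = 0.3, where 3 arrays against 3 cannot go below 0.1. The difference was smaller than the SD between the LW arrays.

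For miR-192 the log2 ratio was 0.12 (standard error 0.26), with an interval from -0.47 to 0.71 (limma, adjusted p = 0.910), or a fold of 1.09 between 0.721 and 1.64. The mean log2 signal was 12.05 ± 0.12 in LW against 12.17 ± 0.31 in EHL (SD, n = 3 per breed; exact permutation p = 0.6). Without EHL array 1 the log2 ratio was -0.0179, so its sign rested on that array.

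For miR-148a the log2 ratio was 0.15 (standard error 0.43), with an interval from -0.82 to 1.12 (limma, adjusted p = 0.951), or a fold of 1.11 between 0.565 and 2.17. The mean log2 signal was 10.03 ± 0.34 in LW against 10.17 ± 0.89 in EHL (SD, n = 3 per breed; exact permutation p = 0.9). The direction again followed EHL array 1, without which the log2 ratio was -0.34. Leaving out LW array 1 gave -0.0232. The fold intervals reach from 0.564 to 1.26 for miR-122 and up to 2.17 for miR-148a, so a missing call does not show that the breeds are alike.

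Among the 109 rows the median log2 ratio was 0.02, and 56 lay above 0. By the size of its log2 ratio, miR-122 ranked 60, miR-148a 78 and miR-192 82 of the 109. Among the 96 rows on all 6 arrays, the breeds did not overlap for 18, or 18.8%, and none of miR-122, miR-192 and miR-148a was among these.

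**Figure D3:**
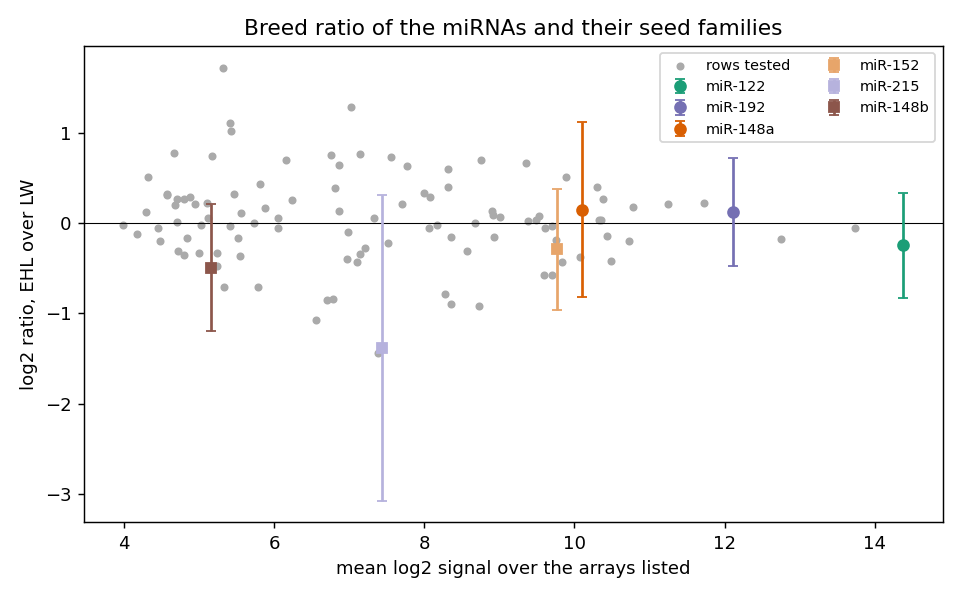
The log2 ratio of EHL over LW is plotted against the mean log2 signal for the 109 rows tested (grey), with 95% confidence intervals from limma for miR-122, miR-192 and miR-148a (circles) and for their seed families (squares). Each of these intervals includes 0.

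A shift common to all probes of an array cancels when signals of the same array are subtracted. The log2 signal of miR-122 less that of miR-192 was 2.46 ± 0.39 in LW against 2.09 ± 0.32 in EHL (SD, n = 3 per breed), a difference of -0.37 between the breeds (exact permutation p = 0.2, adjusted over 3 pairs 0.6). The LW value was 2.02 on array 2 and higher on the others, and the EHL value was 2.46 on array 2 and below the LW values on the others. For miR-122 less miR-148a the values were 4.48 ± 0.63 in LW and 4.09 ± 0.86 in EHL, a difference of -0.39 (exact permutation p = 0.6, adjusted 0.9). For miR-192 less miR-148a they were 2.03 ± 0.26 in LW and 2.00 ± 0.61 in EHL, a difference of -0.0260 (exact permutation p = 0.9, adjusted 0.9). None of the 3 differences exceeded the larger of the SDs of the breeds. That of miR-122 less miR-148a took its sign from EHL array 1, without which it was 0.0519, while that of miR-192 less miR-148a turned positive without EHL array 1 (0.32), without LW array 1 (0.12) and with quantile normalization (0.0205).

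**Figure D4:**
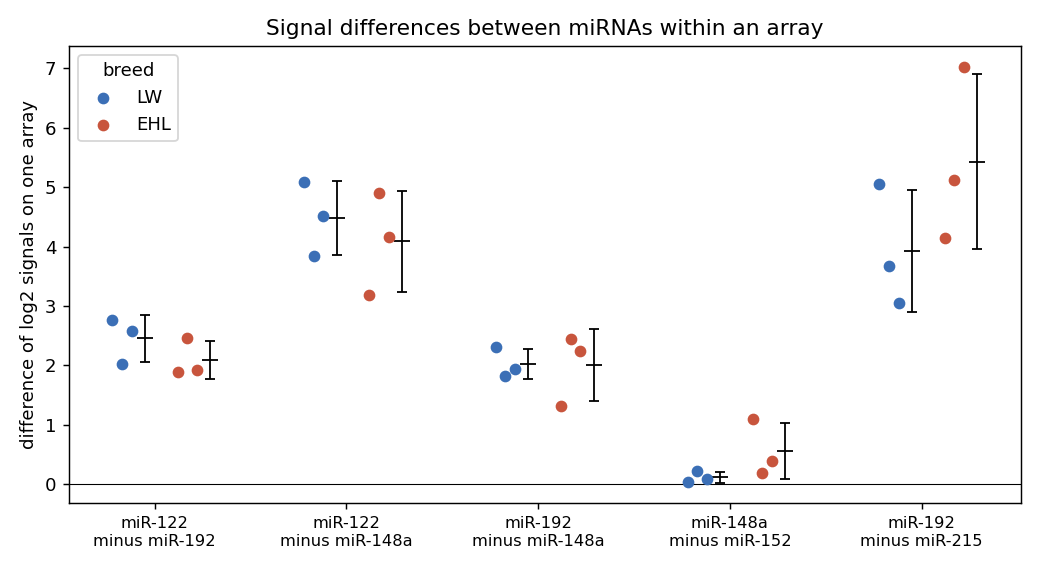
The difference of the log2 signals of 2 miRNAs on the same array is plotted for the 3 pairs of miR-122, miR-192 and miR-148a and for miR-148a and miR-192 against a relative of the same seed, with 1 point per array, LW in blue, EHL in red, and the mean with its SD in black. The largest spread is that of miR-192 less miR-215, from 3.05 to 7.03.

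The list of seed families and cluster partners held 9 names, with a row for 7 of them. In all, 6 rows, miR-122, miR-192 and miR-148a included, entered the test. By limma 0 were called higher and 0 lower in EHL, and 0 had an unadjusted p under 0.05 or a call by SAM. The median log2 ratio of the 6 was -0.27, beside 0.02 over all rows tested, and 2 of the 6 were above 0, miR-192 and miR-148a, both of which lay below 0 without EHL array 1.

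miR-152, of the miR-148a family, had signals of 798, 1139 and 976 on the LW arrays and 1059, 587 and 778 on the EHL arrays. Its log2 ratio was -0.29 (standard error 0.30, limma, adjusted p = 0.761), opposite in sign to that of miR-148a. EHL array 1, which was the highest for miR-148a, was the second highest for miR-152, and EHL array 2 was the lowest for both. The log2 signal of miR-148a less that of miR-152 lay between 0.0463 and 0.39 on 5 arrays and at 1.09 on EHL array 1. It was 0.12 ± 0.090 in LW against 0.56 ± 0.47 in EHL (SD, n = 3 per breed; exact permutation p = 0.2), a difference of 0.44 that was 0.17 without EHL array 1. The mature forms of this family differ in few bases, so probes of the family may share signal, which was not tested.

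miR-148b was listed between 27 and 50 on 5 arrays and was blank on EHL array 2, the array with the most blank named rows, 135 of 236. Its log2 ratio was -0.49 (standard error 0.31, limma, adjusted p = 0.593), fitted without the blank cell, which gives no level.

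miR-215, the seed relative of miR-192, varied far more than miR-192 did. Its signal was 123, 366 and 480 on LW arrays 1, 2 and 3, and 317, 104 and 37 on EHL arrays 1, 2 and 3. Its log2 ratio was -1.38 (standard error 0.75), with an interval from -3.07 to 0.31 (limma, adjusted p = 0.505). The log2 signal of miR-192 less that of miR-215 was 3.93 ± 1.03 in LW against 5.43 ± 1.47 in EHL (SD, n = 3 per breed; exact permutation p = 0.2). It was 4.14 on EHL array 1, inside the LW range from 3.05 to 5.06, and 5.13 and 7.03 on EHL arrays 2 and 3, above it.

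miR-194, which is made with miR-192 or miR-215 from clustered genes, had 1 row, blank on all 6 arrays, while miR-192 was at 3640 or more on each. Rows named miR-194a or miR-194b were not found.

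The rows whose log2 signal differed from each miRNA by the most constant amount were sought among the 95 other rows on all 6 arrays. For miR-122 these were miR-299, miR-106a and miR-15b, with an SD of the difference over the 6 arrays of 0.17, 0.19 and 0.20, where the median over all rows was 0.43. Of these, miR-299 was dim, with a mean log2 signal of 4.17, near the lowest values of the arrays. For miR-192 they were miR-26a, miR-30b-5p and miR-16, with 0.13, 0.15 and 0.16, beside a median of 0.47. For miR-148a they were miR-20, miR-30b-5p and miR-152, with 0.25, 0.31 and 0.39, beside a median of 0.79. Without EHL array 1 the SD for miR-148a and miR-152 was 0.13. The points of these comparisons share their arrays and their normalization, and a row with little spread of its own is close to any steady row.

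miRNAs with a known part in liver lipid and cholesterol metabolism formed a list of 18 names, to which 15 rows of the array matched, and 11 of these entered the test. By limma 0 were called in either direction, and 4 had an unadjusted p under 0.05, beside 13 of all 109 rows (11.9%). SAM called 3, miR-378, miR-185 and miR-130b, beside 8 of 109 (7.34%). These 3 calls rest on the SAM constant chosen after the data had been seen, since with the constant of smallest coefficient of variation SAM called 1 row in all and 0 of the list. The median log2 ratio was 0.26, and 7 of the 11 lay above 0. The breeds did not overlap for 5 of the 11, beside 18 of the 96 rows on all 6 arrays (18.8%), with miR-378 (log2 ratio 1.02), miR-185 (0.76), miR-130b (0.70) and miR-143-3p (0.60) higher in EHL and miR-27a (-0.85) lower. Several names of this list were known as breed differences on these same arrays when it was drawn up, so this count is a description. The brightest rows of the list had log2 ratios nearer 0, with -0.19 (standard error 0.27) for miR-27b and -0.0507 (0.25) for miR-30c.

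Markers of other cells of the liver were present beside the hepatocyte miRNAs. The endothelial miR-126 had signals between 2209 and 4098 in LW and between 3110 and 4524 in EHL. The 6 rows of stellate and other mesenchymal cells (miR-199a, miR-199b and miR-214, with their arms) summed to between 5118 and 6122 in LW and between 4273 and 6636 in EHL. Whether the miR-199 rows share signal was not tested. The 3 rows of smooth muscle (miR-143 and miR-145) summed to between 846 and 1270 in LW and between 868 and 1344 in EHL. The erythroid rows miR-451 and miR-486 summed to between 124 and 249 in LW and between 78 and 410 in EHL. The highest erythroid sum was that of EHL array 1, with miR-451 at 376, the array on which miR-148a and miR-192 also stood highest, and the endothelial miR-126 had its highest value, 4524, on the same array. The smooth muscle row miR-145 went the other way, with its lowest value, 560, on that array. The other smooth muscle row tested, miR-143-3p, was at 308 there, above the LW arrays and below the other EHL arrays. The stellate rows with a value on that array lay inside the range of the other arrays. EHL array 1 was the highest of the 6 arrays for 14 of the 96 rows. The part of any cell type in the values of miR-148a and miR-192 was not tested. By limma 0 of the tested rows of these lists were called, and 0 had an unadjusted p under 0.05. The breeds did not overlap for 1 of the 5 tested stellate rows and 1 of the 2 tested smooth muscle rows, beside 18.8% of the rows on all 6 arrays. These were miR-199b*, at 907 or less in EHL and 928 or more in LW (log2 ratio -0.58), and in the other direction miR-143-3p, at 308 or more in EHL and 306 or less in LW (log2 ratio 0.60). The 2 erythroid rows and the 1 endothelial row tested overlapped. The breeds overlapped for the other tested rows of the same lists. Among them were miR-199a-3p, at 1013 on EHL array 2 and 958 on LW array 1, and miR-145. Of 7 rows of striated muscle, 6 were blank on all arrays and miR-133a-3p was at 17 or less. Of the 2 rows of white blood cells, miR-155 was blank and miR-142 was listed on 1 array, at 12. The paper lists miR-155 among the miRNAs it sequenced in pooled liver RNA of both breeds, so a blank row does not show absence. No row matched the 5 names of biliary epithelium.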

How the data were processed

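The deposited table held 1 normalized fluorescence intensity per row and array. Per the study's methods, the authors pooled total RNA of 2 littermates, hybridized small RNAs (under 300 nt) labelled with Cy5 to an LC Sciences pig miRNA array, subtracted the background and normalized the signals by LOWESS. Cells without a value were blank, by a rule not given in the sources used here, and saturation is not stated there. For some miRNAs that the array missed, the paper names low fluorescence, and it proposes differences between the sequenced miRNA and its probe as a possible reason. Rows with an LRS label were tested only as an alternative.

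Intensities were converted to log2 with no offset in R 4.3.3. The breeds were compared with limma 3.58.1 (functions lmFit and eBayes, no covariate), with Benjamini-Hochberg adjustment over the 109 rows tested. SAM was recomputed with 20 relabellings of the arrays and a constant at percentile 5 of the row errors, a choice made after the data had been seen. Both were tested on simulated data. The replicate is the pooled litter. Single values were compared by exact permutation tests. The miRNAs and lists were chosen with earlier results of these data known. Named were the miRNAs of the lists, the 3 rows most like each miRNA and its neighbours in rank. Gene neighbours came from the RefSeq table of Sscrofa11.1, in which MIR122, MIR192, MIR148A and MIR215 matched 1 gene each. The number of arrays limits the precision. Alternatives were SAM, thresholds of 0.10 and 0.05, median centring, quantile normalization, filters, a trended and robust fit, array weights, mean linear signals, an offset of 16, a replicate block and each array left out.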

Additional observations from a re-analysis of the deposited data

How the results depend on the processing

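None of miR-122, miR-192 and miR-148a was called under any alternative run, with adjusted p or q-values from 0.574 up to 1. The thresholds, filters, SAM, the trended fit, the replicate block and the LRS rows could not change these log2 ratios. Under the alternatives that could, the log2 ratio of miR-122 stayed below 0 except with quantile normalization. There it was 0, since quantile normalization sets the brightest row of every array to 1 value. With each array left out in turn, it ranged from -0.40 to -0.11, that of miR-192 from -0.0179 to 0.29 and that of miR-148a from -0.34 to 0.54, with the negative values of miR-192 without EHL array 1 and of miR-148a without EHL array 1 or LW array 1 (-0.0232). Array weights, lowest for EHL array 1 (0.455) and next lowest for LW array 1 (0.714), gave -0.20 for miR-148a, and the part of each array was not tested. The differences within an array did not all keep their sign under the 9 alternatives run for each, among which the replicate block could not change them. With each array left out, miR-122 less miR-148a ranged from -0.80 to 0.0519, above 0 only without EHL array 1, and miR-192 less miR-148a from -0.25 to 0.32, above 0 without EHL array 1 or LW array 1. The latter was 0.0205 with quantile normalization, and the cause was not tested. Median centring shifted the rows on all 6 arrays by -0.0426.

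Over all rows, limma called 1 miRNA higher and 0 lower in EHL. SAM gave 8 higher, and 1 with its constant set by the smallest coefficient of variation, an alternative added after the data had been seen. Array weights gave 15 higher and 7 lower, quantile normalization 0 higher, and testing the LRS rows too, also added later, 1 lower. With each array left out, 0 to 15 were higher and 0 to 9 lower, with 15 and 9 without EHL array 1, 0 higher without LW array 3 or EHL array 2, and 1 lower without LW array 1. With the replicate block, 0 were higher and 0 lower, and 8 rows stood at an unadjusted p under 0.05. Arrays of the same number did not deviate together (correlations of -0.50, -0.0115 and -0.66 over 96 rows), and were not treated as pairs. For miR-122, miR-192 and miR-148a the block could not change the log2 ratios, since each replicate number occurs once per breed. The adjusted p by limma with the block lay between 0.889 and 0.980.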
